A study of Bos taurus with 6 samples.

Results

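Genes of programmed cell death were followed in bovine granulosa cells across a set of 43 genes: the BCL2 family, the caspases and their regulators, the death receptors and the targets and regulators of p53. The members were chosen by name, as every array probe whose platform annotation carried a listed symbol or an unambiguous synonym of it. Of the 43 genes, 38 had a named probe (57 probes), out of 15216 named genes on the array, and 30 had a representative probe that was above background and could be tested, out of 8932. No probe was named here for BIK, BBC3, PMAIP1, TNFRSF10B or BIRC2. The representative probes of BAK1, BAD, BCL2L11, CASP2, TNFSF10, CFLAR, ENDOG and SESN2 were too dim to test, with levels of 8.14 to 8.54 beside 8.25 to 8.31 for the negative controls.

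The study compared granulosa cells of the dominant preovulatory follicle between 3 aged cows (multiparous Herefords, numbered 13, 110 and 126) and 3 young cows (nulliparous Hereford heifers, numbered 11, 7 and 184). All cows were synchronised with injections of 25 mg of prostaglandin F2 alpha and given 25 mg of luteinizing hormone (LH) on day 6, with follicles taken on day 7, 24 h after LH. An aged and a young cow were set side by side on a 2-colour bovine oligonucleotide array, in 3 fixed pairs (13 with 11, 110 with 7, 126 with 184), each on 2 arrays with the dyes exchanged. The labels mention mother and daughter pairs without saying which cows these were, give no ages, and tie neither the way of collection nor that of storage to a cow. Each RNA came from the cells of a follicle's fluid and went through a linear amplification before labelling. A difference between cows can therefore reflect fewer cells of a type or less RNA per cell, and these cannot be told apart.

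In the mitochondrial route to apoptosis, BH3-only proteins such as BID release the pore formers BAX and BAK1 from guardians such as BCL2 and MCL1, and cytochrome c then leaves the mitochondrion, binds APAF1 and activates CASP9. In the other route, ligands such as FASLG engage receptors such as FAS, which recruit FADD and CASP8. The transcription factor p53, held in check by MDM2 and MDM4, induces arrest and death genes including CDKN1A and the GADD45 genes. Apoptosis of granulosa cells is the hallmark of follicles that degenerate, and granulosa cells of a follicle exposed to LH become resistant to it as they turn into luteal cells.

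Levels are given per cow as log2 signals after normalisation, and ratios as log2(aged / young) per pair. A level compares cows for a given probe, not genes with each other, and the brightest probe of a cow read 15.11 to 15.38. Cell type markers differed between the cows. The 13 granulosa markers on the array, of which 9 were tested, summed to 80426 to 145609 units in the aged cows and 18126 to 132260 in the young cows. The low value belonged to young cow 11, in which the inhibin subunit INHA read 10.48, and 14.87 to 15.17 in the rest of the cows. The granulosa markers did not all go this way. NR5A2 read 13.35 in young cow 11 and 12.81, 12.30 and 11.60 in aged cows 13, 110 and 126. FOXL2 stayed near the negative controls in every cow. The 10 epithelial markers, 9 of them tested, summed to 6102, 8854 and 16793 units in aged cows 13, 110 and 126. In young cows 11, 7 and 184 they summed to 161243, 130388 and 13945. The adhesion gene EPCAM, which defines epithelium, was thus high in the samples of young cow 11 (15.00) and young cow 7 (12.98). The 14 leukocyte markers, 9 of them tested, summed to 36472 units in aged cow 126 and to 5111 to 13367 in the other 5 cows. The part these cells play in the results below was not tested. By numbers in the names of the deposited scans, the 4 arrays of aged cows 13 and 110 came from 1 slide, while the pair of cow 126 was on others.

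None of the 30 tested genes passed the threshold of an adjusted p under 0.05, and 0.00% of all tested genes passed it. By limma the smallest adjusted p was 0.461, while 2160 of 20595 probes had an unadjusted p under 0.05. At that unadjusted level there were 5 members, BNIP2, CASP6, APAF1 and BIRC3 with higher and PAWR with lower ratios in aged cows. That is 16.7% of the members against 11.6% of all tested genes. BNIP2 and APAF1 entered the test only through the aged cows, in which they read higher, so their place in these counts is no support for a difference. With both ages required above background, 27 members were tested, and BIRC3, CASP6 and PAWR remained at that level. Higher in aged cows in all 3 pairs were 5 members (APAF1, BIRC3, BNIP2, CASP6 and GADD45B), 16.7% against 22.6% of all genes. With both ages above background these were 3 (11.1%), without BNIP2 and APAF1, against 19.3% of all genes. Lower in all 3 pairs were 4 (FASLG, PAWR, PDCD4 and XIAP), 13.3% against 16.1%. The other 21 members were mixed. The median ratio of the members was 0.03, or 0.05 (cow 13), -0.02 (cow 110) and 0.21 (cow 126) by pair, beside 0.06 over all tested genes (0.02, 0.03 and 0.03 by pair).

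**Figure D1:**
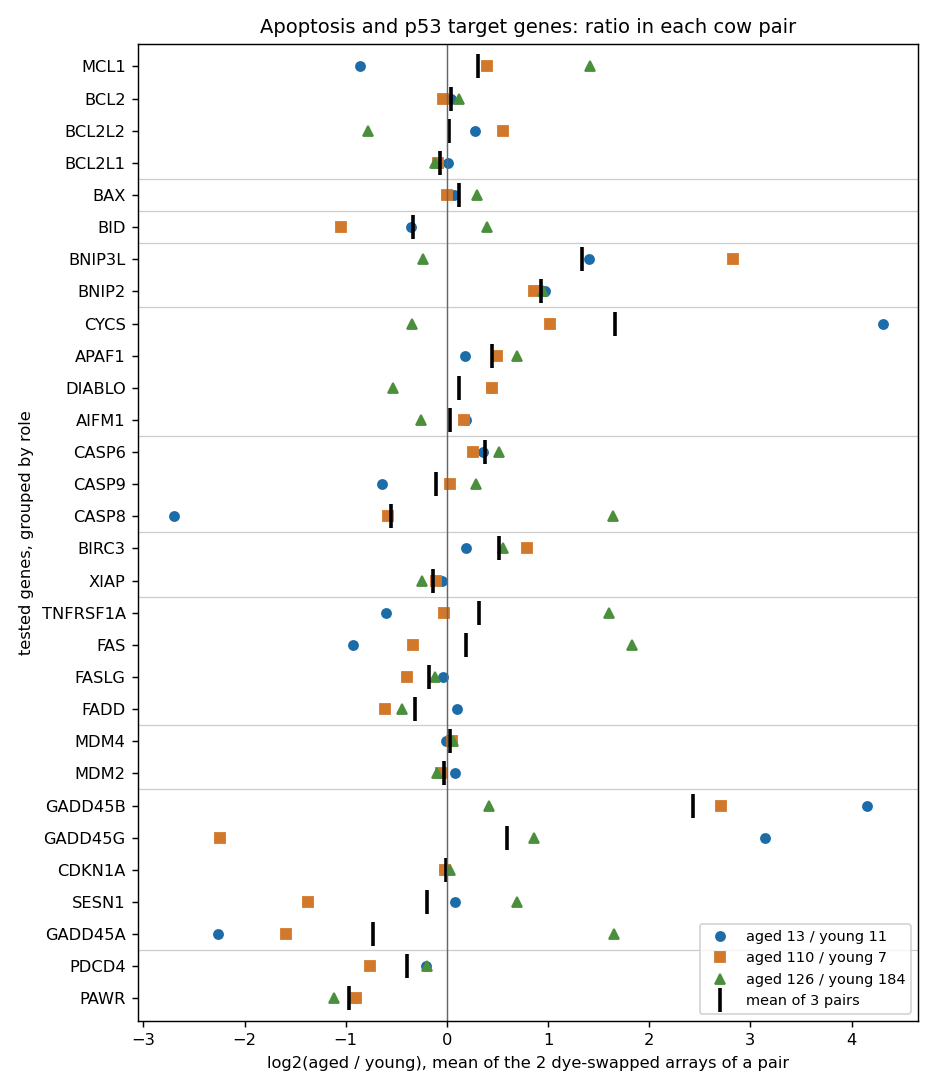
Log2(aged / young) of the 30 tested genes in the 3 cow pairs (symbols, each the mean of 2 dye-swapped arrays) and their mean (black bar), grouped by role from the BCL2-like guardians at the top to PDCD4 and PAWR at the bottom. BNIP2 and PAWR have their 3 symbols close together away from 0, while CYCS, CASP8 and the GADD45 genes spread over several log2 units.

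Several members varied widely between cows. At least 2-fold in 1 or more pairs were 12 members, 40.0% against 32.3% of all genes: BID, BNIP3L, CASP8, CYCS, FAS, GADD45A, GADD45B, GADD45G, MCL1, PAWR, SESN1 and TNFRSF1A. Across the 6 cows, 6 members (BNIP3L, CASP8, CYCS, GADD45A, GADD45B and GADD45G) spanned at least 2 log2 units, as did 1432 of the 8932 tested genes. These shares were near those of all genes. For 11 members, 36.7% against 30.0% of all genes, the pair of cow 126 ran opposite to both other pairs, 2 of them (BNIP3L and CYCS) at levels near the top of the scale in that pair. In 5 members, 16.7% against 12.2%, every aged cow lay above every young cow, and these were the same 5 that were higher in all pairs. Without BNIP2 and APAF1, of which only the aged channels passed throughout, they were 3 of 27, or 11.1% against 9.87% of all genes above background in both ages. PAWR was the single member in which every aged cow lay below every young cow, 3.33% against 6.03%. The dye-swapped arrays of a pair had the same sign for 20 (cow 13), 23 (cow 110) and 22 (cow 126) of the 30 members, or 66.7%, 76.7% and 73.3%, against 71.2%, 74.9% and 68.0% of all genes.

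**Figure D2:**
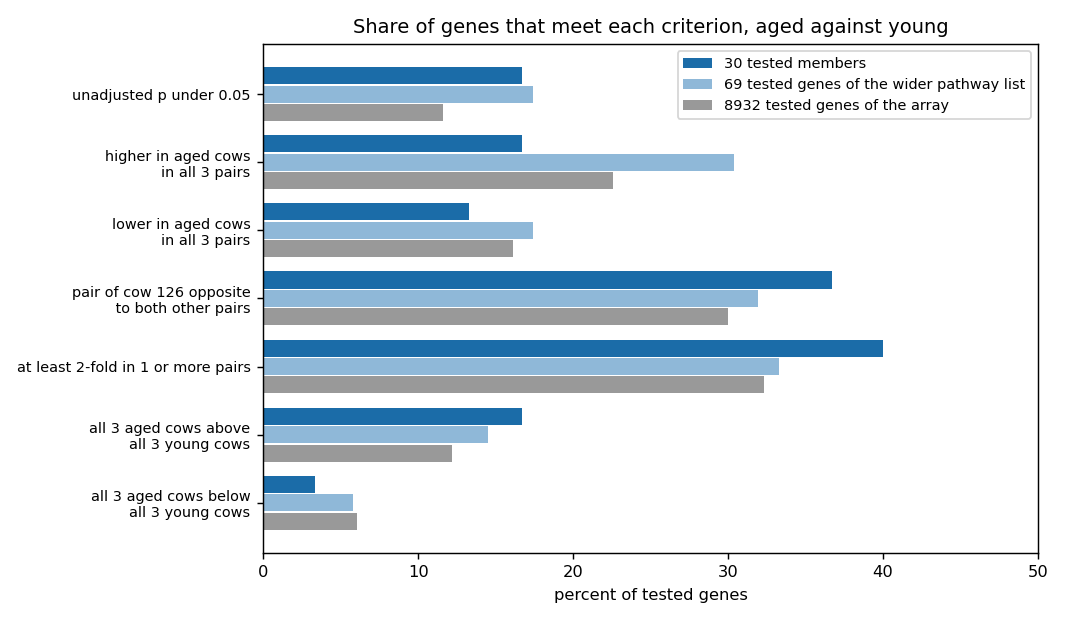
Percent of the 30 tested members (dark bars), of 69 tested genes of a wider pathway list (light bars) and of all 8932 tested genes (grey bars) that met each of 7 criteria in the comparison of aged with young cows. The bars of the members lie near the grey bars, with 40.0% against 32.3% for 2-fold in 1 or more pairs and 16.7% against 22.6% for genes higher in all 3 pairs.

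Among the BCL2-like guardians, which hold the pore formers in check, MCL1 was clearly above background and differed between cows. Its brightest probe read 10.87, 12.27 and 12.50 in aged cows 13, 110 and 126 and 11.73, 11.88 and 11.09 in young cows 11, 7 and 184. Aged cow 13 had the lowest level and aged cow 126 the highest, and the groups overlapped. The ratio averaged 0.31 ± 1.14 (SD, n = 3 pairs, adjusted p = 0.813). A second probe of MCL1 was higher in all 3 pairs (0.39, 1.89 and 0.79, mean 1.02 ± 0.77), as was the dimmest (0.08, 0.49 and 0.73, mean 0.43), which exceeded background on 6 of 6 channels of aged cows and 3 of 6 of young cows. The 3 probes of MCL1 therefore disagreed for the pair of cow 13. BCL2L2, another guardian, was at 11.00, 10.39 and 9.44 in the aged cows and 10.72, 9.84 and 10.22 in the young cows (0.02 ± 0.71). Its highest and lowest levels were both in aged cows. Its other tested probe gave -0.47 ± 0.29 and was lower in all 3 pairs, with an unadjusted p of 0.0492 by limma and an adjusted p of 0.474. BCL2 and BCL2L1, the best known guardians, were dim, with levels of 8.57 to 8.93 and 8.58 to 8.79 over the 6 cows and ratios of 0.04 ± 0.08 and -0.07 ± 0.07. For BCL2 the sign followed the dye: it was -0.24, -0.32 and -0.09 with the aged cow in Cy5 and 0.32, 0.23 and 0.34 with the aged cow in Cy3.

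Of the proteins that open the mitochondrial membrane, BAX was dim as well (8.43 to 8.76, ratio 0.12 ± 0.16, above background on 6 aged and 5 young channels). Its sign also followed the dye, with -0.06, -0.11 and -0.06 with the aged cow in Cy5 and 0.19, 0.11 and 0.66 with the aged cow in Cy3. BID, the BH3-only protein that CASP8 cleaves, was at 10.44, 10.26 and 10.64 in aged cows 13, 110 and 126 and at 10.80, 11.31 and 10.25 in young cows 11, 7 and 184. Young cow 7 had the highest level and young cow 184 the lowest, and the groups overlapped. Its ratio averaged -0.34 ± 0.72 (adjusted p = 0.725), with -0.36, -1.05 and 0.40 in the pairs.

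BNIP2, a partner of BCL2 that also binds regulators of small GTPases, was higher in all 3 pairs by a similar amount. It was at 9.30, 9.52 and 9.47 in aged cows 13, 110 and 126 and at 8.33, 8.66 and 8.52 in young cows 11, 7 and 184. The aged cows lay close together and all above the young cows, in which the probe was above background on 4 of 6 channels. It passed the filter only through the aged cows and was not tested where both ages had to be above background. The ratios were 0.97, 0.86 and 0.95, a mean of 0.93 ± 0.06 (unadjusted p = 0.000484, adjusted p = 0.461 by limma), with the young cows close to background. Leaving out a pair gave means between 0.91 and 0.96. The gene's other probes were too dim to test and gave 0.02 and -0.03, so that the difference rested on a single probe.

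BNIP3L, a mitochondrial receptor for the removal of mitochondria by autophagy, was bright in 4 cows. It was at 15.10, 15.16 and 15.02 in aged cows 13, 110 and 126, against 13.70, 12.33 and 15.26 in young cows 11, 7 and 184. Young cows 11 and 7 were low. The other 4 cows lay close to the brightest probe of their own sample, and no order is read among them. The mean ratio was 1.33 ± 1.54 (1.40, 2.83 and -0.24 in the pairs, adjusted p = 0.593), and 0.58 without the pair of aged cow 110. A dimmer probe showed the same order of the pairs with smaller ratios (0.47, 1.10 and -0.11). It passed the filter only through the aged cows, with 6 aged and 5 young channels above background, and is no support for a difference. On it young cows 11 and 7 read 8.58 and 8.63. In the pair of cow 126 the bright granulosa gene INHA gave -0.30, beside -0.24 for the brighter probe of BNIP3L. Whether ratios near the top of the scale were compressed was not tested.

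Of the factors released from mitochondria, CYCS, which encodes cytochrome c, ran from near the top of the scale to a level far below it. It was at 15.16, 15.12 and 14.90 in aged cows 13, 110 and 126 and at 10.86, 14.10 and 15.25 in young cows 11, 7 and 184. Young cow 11 was lowest and young cow 7 next, while the 3 aged cows and young cow 184 were near the brightest probe of their samples, with no order read among them. If signals near the top of the scale were compressed, which was not tested, the distance to these cows would be a lower bound. Young cow 11 had low INHA (10.48) and high EPCAM (15.00), though its NR5A2 (13.35) was above that of every aged cow. The mean ratio was 1.66 ± 2.39 (4.31, 1.02 and -0.35, adjusted p = 0.644), and it was 0.33 without the pair of aged cow 13. APAF1, the scaffold that cytochrome c assembles, was dim but ordered: 8.86, 8.87 and 8.95 in the aged cows and 8.67, 8.38 and 8.26 in the young cows. All aged cows lay above all young cows, in which the probe was above background on 3 of 6 channels. It too passed the filter only through the aged cows, and young cows 7 and 184 lay near the negative controls. The ratio was 0.45 ± 0.25 (0.18, 0.49 and 0.69, unadjusted p = 0.0398, adjusted p = 0.463 by limma). DIABLO, which frees caspases from their inhibitors, was at 0.12 ± 0.56 and AIFM1, a flavoprotein that moves to the nucleus in cell death, at 0.03 ± 0.26. In both genes the pair of cow 126 ran opposite to the others.

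**Figure D3:**
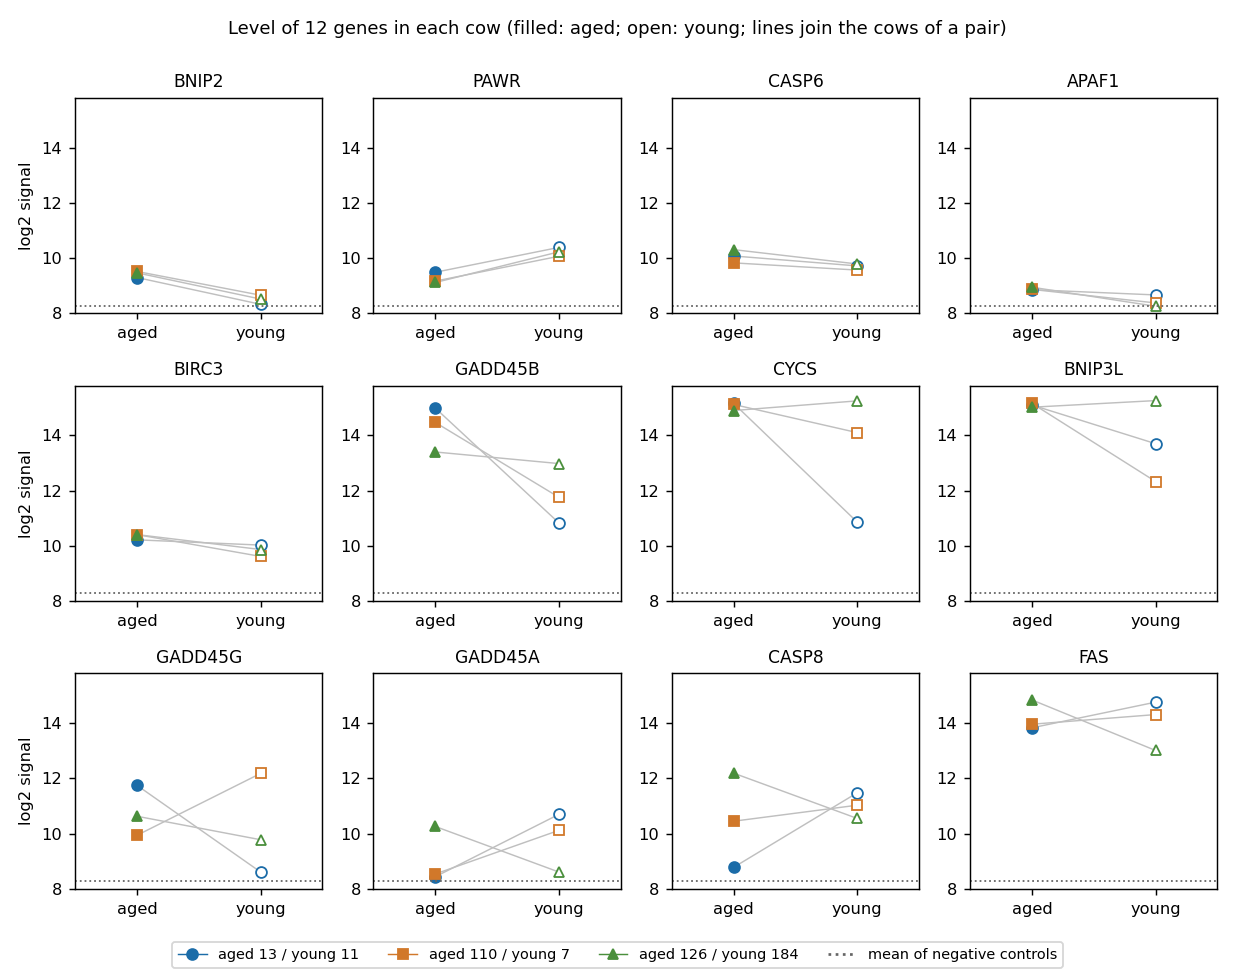
Log2 signal of 12 genes in each aged cow (filled, left) and each young cow (open, right), with lines joining the cows of a pair and the mean of the negative controls dotted. The upper row and BIRC3 show small separations between the ages, GADD45B a large one, and the last row shows lines that cross. Aged cow 126 lies above the other aged cows for GADD45A, CASP8 and FAS.

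Of the caspases, CASP6, an executioner that cuts lamin A, was higher in all 3 pairs and on all 6 arrays. It was at 10.08, 9.83 and 10.31 in aged cows 13, 110 and 126 and at 9.72, 9.57 and 9.79 in young cows 11, 7 and 184. The lowest aged cow lay just above the highest young cow. The ratio was 0.38 ± 0.13 (0.36, 0.26 and 0.51), with an unadjusted p of 0.0171 and an adjusted p of 0.461 by limma. CASP8, the initiator of the death receptor route, had the widest range of the caspases, 10.6-fold. It was at 8.78, 10.45 and 12.19 in the aged cows and at 11.48, 11.03 and 10.55 in the young cows. Both extremes were aged cows, 13 at the bottom and 126 at the top, so that the mean ratio of -0.55 ± 2.17 covered -2.70, -0.58 and 1.64. Without the pair of cow 13 that mean was 0.53, and without that of cow 126 it was -1.64. CASP9, which the apoptosome activates, was at -0.11 ± 0.48 on its brightest probe and at 0.35 ± 0.12 (0.38, 0.45 and 0.21, unadjusted p = 0.0201 and adjusted p = 0.461 by limma) on its other tested probe. These probes disagreed in sign for the pair of cow 13.

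Of the inhibitors of apoptosis, BIRC3, a ubiquitin ligase of tumour necrosis factor signalling, was higher in all 3 pairs. Its levels were 10.22, 10.41 and 10.41 in aged cows 13, 110 and 126 and 10.03, 9.62 and 9.87 in young cows 11, 7 and 184. The groups did not overlap. The ratio was 0.51 ± 0.30 (0.19, 0.79 and 0.55), with an unadjusted p of 0.044 and an adjusted p of 0.465 by limma. XIAP, which blocks caspases directly, was dim and slightly lower in all 3 pairs. It read 8.54, 8.66 and 8.48 in the aged cows and 8.59, 8.77 and 8.73 in the young cows, which overlapped. Its ratio of -0.14 ± 0.10 was 0.03 with aged cows in Cy5 alone.

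In the death receptor route, FAS and TNFRSF1A shared the order of the pairs with CASP8. FAS was bright, with 13.83, 13.96 and 14.84 in aged cows 13, 110 and 126 and 14.76, 14.31 and 13.01 in young cows 11, 7 and 184. Aged cow 126 and young cow 11 were highest, young cow 184 was lowest, and the groups overlapped. The ratios were -0.93, -0.34 and 1.83 (mean 0.19 ± 1.45, adjusted p = 0.912). TNFRSF1A, the receptor of tumour necrosis factor, was at 12.16, 12.35 and 13.27 in the aged cows and at 12.76, 12.38 and 11.67 in the young cows. Its ratios were -0.60, -0.03 and 1.60 (mean 0.32 ± 1.14, adjusted p = 0.810). Here again aged cow 126 stood highest and young cow 184 lowest. In the same pairs the median of the tested leukocyte markers was -0.25, -0.21 and 1.34, and that of the epithelial markers -4.39, -2.86 and 0.08. The leukocyte signalling gene TYROBP was at 13.87 in aged cow 126 and at 8.25 to 10.61 in the other 5 cows. Not every leukocyte marker was highest there. PTPRC was at 12.03 in aged cow 126 and at 12.54 and 12.33 in young cows 7 and 184. It was the 1 tested leukocyte marker that was lower in aged cows in all 3 pairs (-0.42, -1.22 and -0.30).

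FASLG, the ligand of FAS, was dim and lower in all 3 pairs (-0.04, -0.39 and -0.12, mean -0.18 ± 0.19, adjusted p = 0.592). It was at 8.55, 8.88 and 8.49 in aged cows 13, 110 and 126 and at 8.59, 9.27 and 8.60 in young cows 11, 7 and 184, with the highest level in young cow 7 and overlapping groups. The authors' deposited table gave 0.14, -0.68 and -0.63 for FASLG, so the direction in the pair of cow 13 depended on the processing. FADD, the adaptor between receptor and caspase, was at 8.94, 8.77 and 9.02 in the aged cows and at 8.84, 9.38 and 9.46 in the young cows. Young cows 7 and 184 were above all aged cows and young cow 11 was among them. Its ratio was -0.32 ± 0.37 (adjusted p = 0.601), and its dimmer probe gave -0.02 ± 0.10.

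The regulators of p53 showed almost no difference between the cows. MDM2, the ubiquitin ligase that degrades p53, spanned 8.62 to 8.77 and MDM4, its relative, 8.52 to 8.68, with ratios of -0.03 ± 0.10 and 0.03 ± 0.04. Among p53 targets, CDKN1A, the cell cycle inhibitor p21, spanned 8.49 to 8.75 (-0.01 ± 0.03). These 3 genes were near the negative controls, where a difference in the transcript can leave little trace in the signal. In all, 8 tested members stayed below a level of 9 in every cow (BCL2, BCL2L1, BAX, XIAP, APAF1, MDM2, MDM4 and CDKN1A), with mean ratios of -0.14 to 0.45.

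The GADD45 genes, stress sensors that bind cell cycle and kinase partners, varied more between cows than the other tested p53 targets among the members, each in its own way. GADD45B was at 14.99, 14.47 and 13.40 in aged cows 13, 110 and 126 and at 10.83, 11.76 and 12.98 in young cows 11, 7 and 184. Every aged cow was above every young cow, with 0.42 between the cows of the third pair and 4.15 and 2.71 in the others. Aged cow 13 lay near the brightest probe of its sample (15.24), and compression there was not tested. The mean of 2.43 ± 1.88 (5.38-fold) was the highest of all members. Its unadjusted p was 0.0717 and its adjusted p 0.503 by limma. Without the pair of aged cow 13 the mean was 1.57, and without that of cow 126, which leaves the pairs of a single slide, it was 3.43. Aged cows 13 and 110, with the high ratios, were paired with the young cows whose epithelial markers were high. The authors' deposited table gave 4.59, 2.75 and 0.55.

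GADD45A was at 8.44, 8.54 and 10.26 in aged cows 13, 110 and 126 and at 10.70, 10.12 and 8.61 in young cows 11, 7 and 184. Aged cow 126 and young cows 11 and 7 were high, and the other 3 cows lay near background. The ratios of -2.26, -1.59 and 1.65 averaged -0.73 ± 2.09 (adjusted p = 0.771), or -1.92 without the pair of cow 126. A dimmer probe of the gene spanned 8.46 to 8.55 and gave -0.03 ± 0.06. GADD45G followed another order, with 11.75, 9.94 and 10.63 in the aged cows and 8.61, 12.18 and 9.78 in the young cows. Young cow 7 and aged cow 13 were highest, young cow 11 was lowest, and the ratios were 3.14, -2.24 and 0.86 (mean 0.59 ± 2.70, adjusted p = 0.852). SESN1, a stress-induced inhibitor of growth signalling, spanned 10.45 to 11.81 and gave 0.08, -1.37 and 0.69 (mean -0.20 ± 1.06).

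PAWR, a promoter of apoptosis that works with the transcription factor WT1, had the lowest mean ratio of the members. It was at 9.49, 9.17 and 9.12 in aged cows 13, 110 and 126 and at 10.39, 10.07 and 10.23 in young cows 11, 7 and 184. The ages did not overlap, and the ratios of -0.91, -0.90 and -1.12 were close to each other. Their mean was -0.97 ± 0.12 (0.509-fold), with an unadjusted p of 0.00103 and an adjusted p of 0.461 by limma. Leaving out a pair gave means of -1.01 to -0.90. Before the dyes were averaged, the ratios of PAWR were -0.51, -0.74 and -0.69 with the aged cow in Cy5. With the aged cow in Cy3 they were -1.30, -1.06 and -1.54. The other probe of PAWR was above background on no channel. Of the 9 tested epithelial markers, 3 were lower in aged cows in all 3 pairs too. They were AGR3 (-1.36, -1.27 and -1.35), EPCAM (-6.77, -4.18 and -0.53) and AGR2 (-6.83, -1.55 and -0.29). EPCAM and AGR2 passed the filter only through the young cows. The other 6 markers were higher in the aged cow in the pair of cow 126 (0.07 to 0.70), in which PAWR gave -1.12. The part of the epithelial markers in the ratios of PAWR was not tested. PDCD4, an inhibitor of translation, was at 8.83, 9.26 and 9.38 in the aged cows and at 9.04, 10.02 and 9.57 in the young cows. It was lower in aged cows in all 3 pairs (-0.21, -0.76 and -0.20, mean -0.39 ± 0.32, adjusted p = 0.524), though the groups overlapped.

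**Figure D4:**
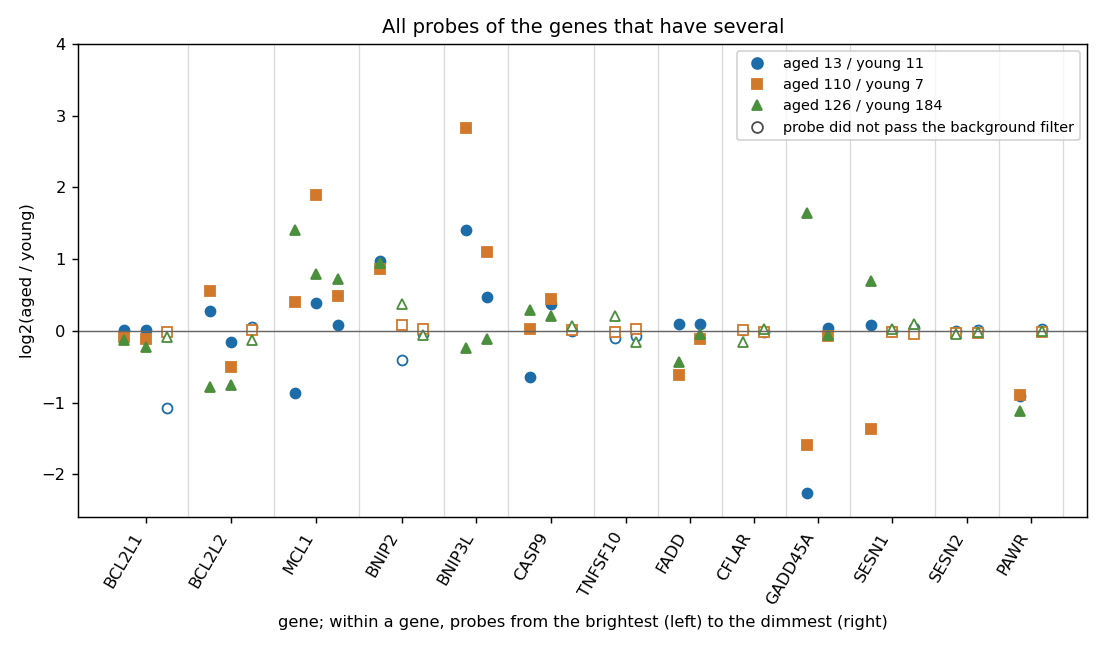
Log2(aged / young) in the 3 cow pairs for every probe of the 13 members with several probes, from the brightest probe of a gene on the left to the dimmest on the right. Open symbols are probes that did not pass the background filter. The probes of BNIP3L have the same order of the pairs, though the dimmer one passed the filter only through the aged cows. Those of MCL1 and CASP9 differ in sign for the pair of aged cow 13, and the open symbols lie mostly near 0.

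Of the 13 members with several probes, 7 had more than 1 tested probe. The 19 untested probes had levels of 8.09 to 9.36. The highest of these values was that of a BCL2L1 probe in young cow 11, which read 8.27 to 8.36 in the other 5 cows. It exceeded background on 0 of 6 channels of aged cows and 3 of 6 of young cows and gave -1.08 in the pair of cow 13.

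A wider list of 96 genes of the same pathways (p53 network, other BCL2 partners, caspase regulators and death receptor signalling), none of them members, had 87 genes on the array and 69 tested. No gene of it passed the adjusted threshold, and 12 had an unadjusted p under 0.05, or 17.4%, against 11.6% of all genes. Higher in aged cows in all 3 pairs were 21 (30.4%, against 22.6% of all genes), and 12 (17.4%, against 16.1%) were lower. Of the 21, HTRA2, POLK, TNFRSF21 and DAXX passed the filter only through the aged cows, and HTRA2 and POLK also counted at the unadjusted level. BIRC7, among the lower genes, passed only through the young cows. The place of these genes in the counts is no support for a difference. The 21 became 13 with spot medians and 12 with the authors' values. In these settings the list no longer exceeded all genes, of which 20.3% and 18.5% were higher in all 3 pairs. The median ratio was 0.05. By branch, 7 of 17 tested caspase regulators were higher and 2 lower, as were 4 and 1 of 8 death receptor genes, 5 and 4 of 19 BCL2 partners and 5 and 5 of 25 genes of the p53 network.

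The wider list's smallest unadjusted p belonged to LTBR, the lymphotoxin beta receptor, at 11.86, 12.22 and 11.91 in aged cows 13, 110 and 126 and 12.47, 12.97 and 12.70 in young cows 11, 7 and 184 (-0.72 ± 0.09). All aged cows were below all young cows. PERP, a p53 target and junction protein, was also lower in every aged cow (-1.35 ± 0.37), with -0.94, -1.44 and -1.67 in the pairs. Its other probe gave -5.37, -5.09 and -0.54. That probe passed the filter only through the young cows, with 5 aged and 6 young channels above background, and is no support for a difference. AVEN, which dampens caspase activation, was at -0.50 ± 0.15. On the higher side were BAG2, a co-chaperone, at 0.67 ± 0.12, TRADD, the adaptor of TNFRSF1A, at 0.41 ± 0.02, and the p53-induced gene TP53INP1 at 0.64 ± 0.20. The ratio of TRADD depended on the dye. It was 0.13, 0.33 and -0.06 with the aged cow in Cy5 and 0.68, 0.52 and 0.85 with the aged cow in Cy3. BIRC6, a giant inhibitor of apoptosis, was at 0.88 ± 0.32, and HTRA2, a mitochondrial protease that counters such inhibitors, at 0.67 ± 0.25. HTRA2 passed the filter only through the aged cows, with 6 aged and 5 young channels above background. Each of these 8 genes had an adjusted p of 0.461 by limma and the same direction in all 3 pairs. Other tested probes of LTBR and BAG2 gave -0.06 each. BIRC5, a mitotic inhibitor of apoptosis, was at 10.61, 8.90 and 8.95 in the aged cows and at 8.38, 9.96 and 8.92 in the young cows, so that its ratios were 2.23, -1.06 and 0.04. Aged cow 13 and young cow 7 were the high ones for BIRC5, as they were for GADD45G.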

How the data were processed

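Per the file headers, the deposited scanner files hold linear, unnormalised intensity values (means and medians of spots and of the surrounding background, for each channel) and another column, a count of ignored cells, that marks spots left out here. The authors also deposited log2 ratios per probe. The submitters' processing notes name limma; further steps are not given in the sources used here. Set against the scanner values, those ratios ran as log2(aged / young) on all 6 arrays (r = 0.819 to 0.939), with medians of -0.0092 to 0.0036. Their background correction and filter are unknown.

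Spot means were corrected with normexp (offset 50) and normalised by loess within arrays in limma 3.58.1 (R 4.3.3). Averaging each dye swap gave 3 values, 1 a pair, whose mean was tested against 0 with lmFit and eBayes, two-sided, with Benjamini-Hochberg adjustment over 20595 of 43794 probes. Kept probes exceeded the mean + 2 SD of 153 negative controls in every aged or every young channel. Negative controls averaged 199.8 to 400.5 units, and 49.4 to 71.9% of probes per channel were above them. The number of arrays limits the precision. Levels per cow were taken after Aquantile normalisation and averaged over both dyes. The pairing is that of the arrays themselves. The fit was tested on simulated data.

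Names came from the platform annotation, in which 21790 probes have a symbol. Of 15229 symbols, 14114 stood in RefSeq (ARS-UCD2.0) and 982 were updated by synonym. A gene was represented by its brightest probe. Values are printed per cow for tested members among the 12 smallest p, the 10 widest ranges over cows, or with 1 sign on all 6 arrays, and for up to 8 pathway genes with the smallest p. Other values were chosen after they were seen. The members, lists and tests were chosen with earlier results of these data known. Alternatives included other background corrections, scalings, filters, dyes, blocks and the authors' values.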

Additional observations from a re-analysis of the deposited data

How the results depend on the processing

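No member passed the adjusted threshold in any fit that kept 1 value per pair or modelled the pair or slide as a block. With no replicate block, which counts the 6 arrays as independent samples, 362 probes passed, BNIP2 and PAWR among them, the only members to do so. Of 552 values of single members under alternatives, 50 did not keep their sign. Among the 9 members with 1 direction in all pairs the sign of the mean turned once, XIAP being 0.03 with aged cows in Cy5 only. The direction in every pair was less steady. With spot medians and with the authors' values, FASLG left the members lower in all 3 pairs and BCL2 entered. PDCD4 left them with aged cows in Cy5 only. BNIP2 ranged from 0.82 to 1.39 and PAWR from -1.33 to -0.65.

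The 5 members at an unadjusted p under 0.05 became 3 of 27 with both channels above background. They were 3 of 17 under a stricter filter added after seeing the data (signal at least 2 times the negative controls). Of all genes, 11% and 11.8% were at that level in these settings. Leaving out a pair gave 2 to 6 of 30 members, against 3.29 to 17.6% of all genes. BNIP2 and PAWR remained without the pair of cow 110. The names changed as well: CASP6 and BIRC3 left with spot medians, APAF1 with them under the authors' values, and CASP6 and APAF1 with the cow pair as a random block. GADD45B and PDCD4 entered in all 3. Members higher in all pairs were 3 with both channels above background, 8 with aged cows in Cy3 only and 8 to 10 without a pair. Without a pair, 2 pairs have to agree in place of 3. The shares of all genes were 19.3%, 26.2% and 29 to 38.8%, in that order. Members lower in all pairs were 7 with aged cows in Cy5 only, 8 in Cy3 only, 1 under the stricter filter and 4 to 10 without a pair. Of all genes, 16.5%, 18.6%, 11% and 20.7 to 30% were lower, in that order. Median centring in place of loess placed BNIP3L and CYCS among the higher members. It took PDCD4 from the lower ones and added BCL2L1, CDKN1A and MDM4 to them. That made 7 higher and 6 lower members, against 29.8% and 21.9% of all genes. The members' median was 0.31 under the stricter filter, where that of all tested genes was 0.26. In the wider list, 13 of 69 genes were higher in all pairs with spot medians and 12 of 69 with the authors' values. The shares of all genes were 20.3% and 18.5% in these settings. Without a pair, 24 to 30 were higher and 14 to 25 lower, against 29 to 38.8% and 20.7 to 30% of all genes. Under the stricter filter 3 were lower, against 11% of all genes. The causes were not tested. The 8 tested members below a level of 9 in every cow were close to background, which limits what their ratios can show.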
